A study of Homo sapiens with 4 samples.

Results

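Metallothioneins are small proteins rich in cysteine, and their transcripts were followed here in HUES8, a line of human embryonic stem cells grown on Matrigel in mTeSR1 medium. The 9 metallothionein genes MT1A, MT1E, MT1F, MT1G, MT1H, MT1M, MT1X, MT2A and MT3, with MTF1, the transcription factor that drives them, were taken by gene symbol from the count table, 10 of 59050 listed genes, and none was dropped for low counts. The compared groups are 2 libraries with the genotype label CPT2 KO and 2 with the genotype label WT, and the treatment label reads WT for all 4. CPT2 is the mitochondrial carnitine palmitoyltransferase 2, which acts in the oxidation of fatty acids. The labels do not say how the CPT2 KO cells were made, whether they are 1 clone, or whether replicates came from separate cultures. Every p-value therefore reflects the spread among these 4 libraries alone, and that spread may be technical. The CPT2 transcript went against the label, with 233 and 170 counts in the libraries labelled CPT2 KO against 52 and 72 counts in those labelled WT (difference of 1.78 on the log2 scale, adjusted p = 0.0218 with edgeR, 0.168 without replicate 1 and 0.0511 without replicate 2 labelled CPT2 KO), so groups are named by their labels throughout.

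Metallothioneins hold zinc, copper and cadmium through the sulfur of their cysteines, and so buffer free metal and take up reactive oxygen species. MTF1 senses free zinc through its zinc fingers and then binds metal response elements, short motifs in metallothionein promoters. It also switches on SLC30A1, which exports zinc from the cell. MT2A and several MT1 genes are made in most tissues and respond to metals and to glucocorticoids, while MT3 is known mainly from the brain.

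The 9 genes lie on chromosome 16 between 56589074 and 56684196 (GRCh38, positions from GENCODE 29), a stretch of 95.1 kb. MT1G is on the minus strand and the other 8 are on the plus strand. MT1G (56666731 to 56668065) and MT1H (56669814 to 56671129) stand next to each other with 1748 bases between them and are read away from each other. MTF1 is on chromosome 1 (37809567 to 37859620, minus strand). All 10 are annotated as protein coding.

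The coding sequences of MT1G, MT1H, MT1X and MT2A are shown because the first pair and the second pair took different courses across the libraries. They are the spliced coding parts of GENCODE 29 transcripts, 5′ to 3′, with the codons for cysteine in capitals.
MT1G: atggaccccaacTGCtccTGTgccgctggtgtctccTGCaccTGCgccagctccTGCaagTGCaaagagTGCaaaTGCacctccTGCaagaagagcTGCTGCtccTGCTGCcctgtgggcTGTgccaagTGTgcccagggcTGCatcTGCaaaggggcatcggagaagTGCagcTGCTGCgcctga
MT1H: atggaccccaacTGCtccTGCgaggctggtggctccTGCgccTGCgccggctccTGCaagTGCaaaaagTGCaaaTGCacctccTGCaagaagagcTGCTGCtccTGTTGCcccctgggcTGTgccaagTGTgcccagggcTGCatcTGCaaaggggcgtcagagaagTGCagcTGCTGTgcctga
MT1X: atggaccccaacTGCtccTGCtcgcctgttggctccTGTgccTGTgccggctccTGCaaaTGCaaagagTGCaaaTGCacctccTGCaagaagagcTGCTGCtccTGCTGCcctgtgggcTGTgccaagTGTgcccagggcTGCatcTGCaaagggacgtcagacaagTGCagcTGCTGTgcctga
MT2A: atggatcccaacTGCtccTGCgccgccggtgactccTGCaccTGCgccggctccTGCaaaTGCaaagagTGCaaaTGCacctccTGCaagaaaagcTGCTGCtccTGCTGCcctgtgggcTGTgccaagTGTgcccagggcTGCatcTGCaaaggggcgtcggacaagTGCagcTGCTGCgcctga
Each codes for 61 amino acids, of which 20 are cysteines, and the same held for the other MT1 members. MT3 has 68 codons and 20 cysteines. Over 28 pairs among MT1 members and MT2A, 88.7% to 95.2% of aligned coding bases were identical, with MT1G and MT2A the closest pair, while MT3 shared 72.5% to 75.4% with the others.

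Such likeness bears on the counts, since a short read from the coding part can match several members. Of all stretches of 50 bases in the annotated transcripts, 16.5% for MT1G, 15.8% for MT1H, 3.64% for MT1X, 3.02% for MT2A, 7.1% for MT1E and 1.22% for MT1F also occurred in another metallothionein row. At 100 bases this was 0% for each of these except MT1H, for which 1.39% occurred in MT1HL1, a row with 0 counts in all 4 libraries. Read length and the handling of reads with several matches were not stated in the sources at hand, so a part of the reads of these members is uncertain. MT1X also shares 321 exon bases on the same strand with AC026461.1, which had 0 counts in all 4 libraries.

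MT1G was the member that passed the test, and it rose in the libraries labelled CPT2 KO. It had 82 and 42 counts in the libraries labelled CPT2 KO against 6 and 1 counts in those labelled WT. In CPM, counts brought to a common library total with TMM scaling, these are 4.05 and 2.53 against 0.325 and 0.0485, with means of 3.29 ± 1.08 and 0.187 ± 0.195 (SD, n = 2 each). The groups did not overlap, and in bulk samples fewer cells of a type and less RNA per cell cannot be told apart. The log2 fold change was 4.17 with a standard error (SE) of 0.67, or 18.0-fold (edgeR quasi-likelihood test, adjusted p = 0.0261), and the ratio of the summed counts was 18.8 with a counting interval of 8.86 to 47.7, which covers counting error only. Of the 10 members 6 passed the low count filter and were tested, and MT1G was the 1 called higher, where 0.359% of all 17564 tested genes were. MT1G passed that filter through the libraries labelled CPT2 KO alone. Without replicate 1 labelled CPT2 KO the log2 fold change was 3.76 and the call was lost (edgeR adjusted p = 0.0727), and limma-voom gave an adjusted p of 0.0745.

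MT1H, the neighbour of MT1G on the other strand, had 9 and 17 counts in the libraries labelled CPT2 KO and 0 and 0 in those labelled WT. In CPM these are 0.445 and 1.02 against 0 and 0. With the libraries labelled WT put at a floor of 3 counts each (0.162 and 0.145 CPM), the mean under the CPT2 KO label was 4.77 times the mean floor. That value covers neither counting error nor the spread between the libraries labelled CPT2 KO. The gene was under the low count filter, so it was not tested with the other genes. With no filter edgeR gave an adjusted p of 0.157, and DESeq2 gave 0.128, so the difference did not pass in either. Of the 2 libraries labelled CPT2 KO, replicate 1 was the higher for MT1G and replicate 2 for MT1H.

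**Figure D1:**
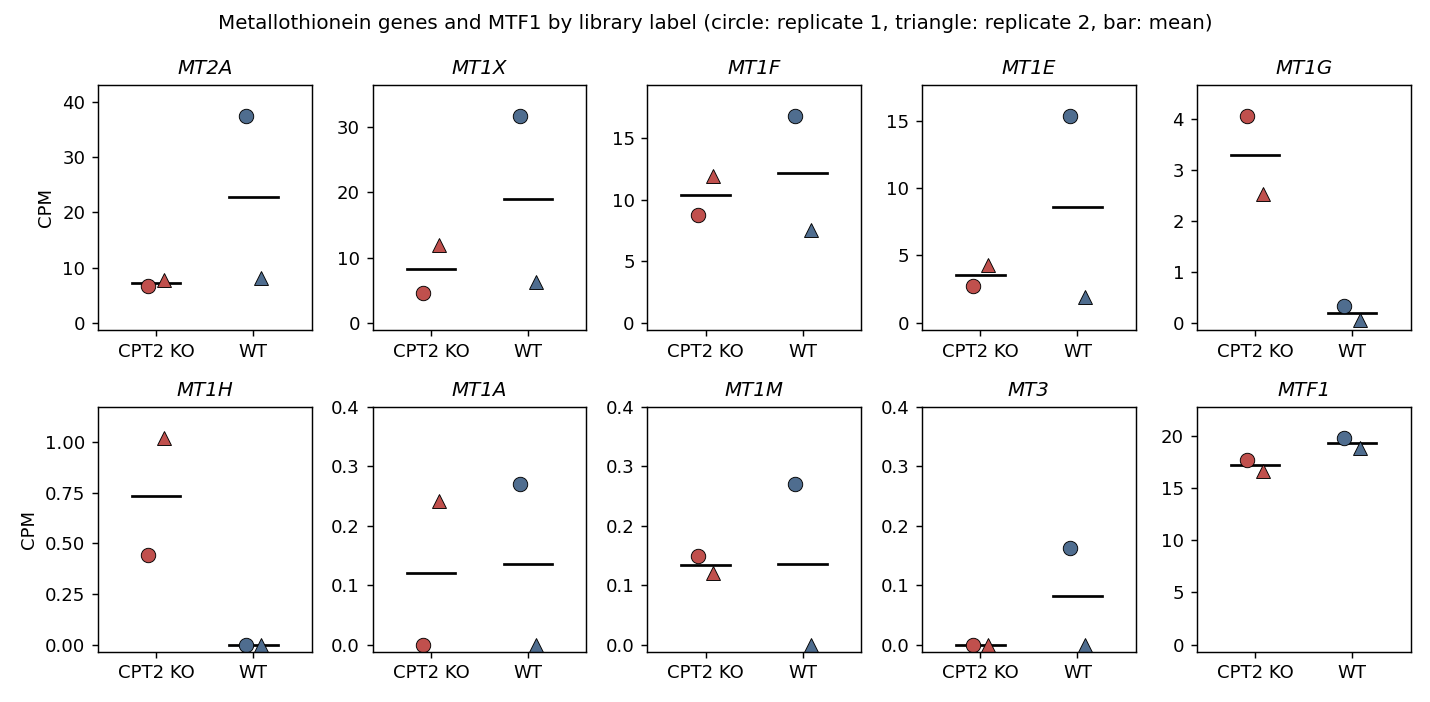
CPM of the 9 metallothionein genes and MTF1 in each library, with the libraries labelled CPT2 KO left and those labelled WT right in every panel; each point is a library (circles replicate 1, triangles replicate 2), bars are means of 2 and each panel has its own axis. MT2A, MT1X, MT1F and MT1E are highest in replicate 1 labelled WT, while MT1G, at 4.05 and 2.53 CPM against 0.325 and 0.0485 CPM, and MT1H are higher in the libraries labelled CPT2 KO.

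MT2A, the most abundant member per length, had 135 and 130 counts in the libraries labelled CPT2 KO against 692 and 166 in those labelled WT. These are 6.67 and 7.82 CPM against 37.45 and 8.05 CPM, with means of 7.25 ± 0.813 and 22.8 ± 20.8 CPM (SD, n = 2 each). Replicate 1 labelled WT alone stood high, and the other 3 libraries lay close together. The log2 fold change was -1.65 (SE 0.97, edgeR adjusted p = 0.695), which did not pass. It was -0.16 without replicate 1 labelled WT (adjusted p = 1) and -2.37 without replicate 2 (adjusted p = 7.16e-11), where the group labelled WT is replicate 1 alone, so that setting compares that library with the others.

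MT1X had 92 and 199 counts (4.55 and 12.0 CPM) in the libraries labelled CPT2 KO against 586 and 129 counts (31.7 and 6.25 CPM) in those labelled WT. MT1E had 56 and 71 counts (2.77 and 4.27 CPM) against 284 and 39 counts (15.4 and 1.89 CPM). MT1F had 177 and 198 counts (8.75 and 11.9 CPM) against 310 and 155 counts (16.8 and 7.51 CPM). For all 3, replicate 1 labelled WT was the highest library and the groups overlapped. The log2 fold changes were -1.21 (SE 1.16) for MT1X, -1.29 (SE 1.24) for MT1E and -0.23 (SE 0.37) for MT1F, with edgeR adjusted p of 0.802, 0.799 and 0.876. Without replicate 1 labelled WT all 3 turned round, to 0.37, 0.87 and 0.45 (adjusted p = 1, 0.893 and 0.975), and without replicate 2 labelled WT MT1E was called lower (-2.15, adjusted p = 2.5e-06), a setting in which 3.84% of all tested genes were called lower.

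The remaining members were near the limit of detection. MT1A had 0 and 4 counts in the libraries labelled CPT2 KO against 5 and 0 in those labelled WT. MT1M had 3 and 2 counts against 5 and 0. MT3 had 0 and 0 counts against 3 and 0. None of the 3 passed the low count filter, and differences between groups were not detectable at this depth, where 1 count was worth 0.0485 to 0.0602 CPM. Among 11 further metallothionein rows in the table, pseudogenes and MT1B, MT4 and MT1HL1, none passed the filter and 6 had 0 counts throughout. MT1L, a transcribed pseudogene between MT2A and MT1E, held the most, with 7 and 6 counts against 11 and 5.

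MTF1 itself differed little between libraries, at 359 and 277 counts (17.7 and 16.7 CPM) in the libraries labelled CPT2 KO against 367 and 390 counts (19.9 and 18.9 CPM) in those labelled WT. The groups did not overlap, but the difference was small, -0.17 as log2 fold change (SE 0.18, edgeR adjusted p = 0.799). It stayed between -0.22 and -0.12 over 14 alternatives. Of the 6 tested members, MT1G, MT2A and MTF1 had groups that did not overlap, which 40.9% of all tested genes had.

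**Figure D2:**
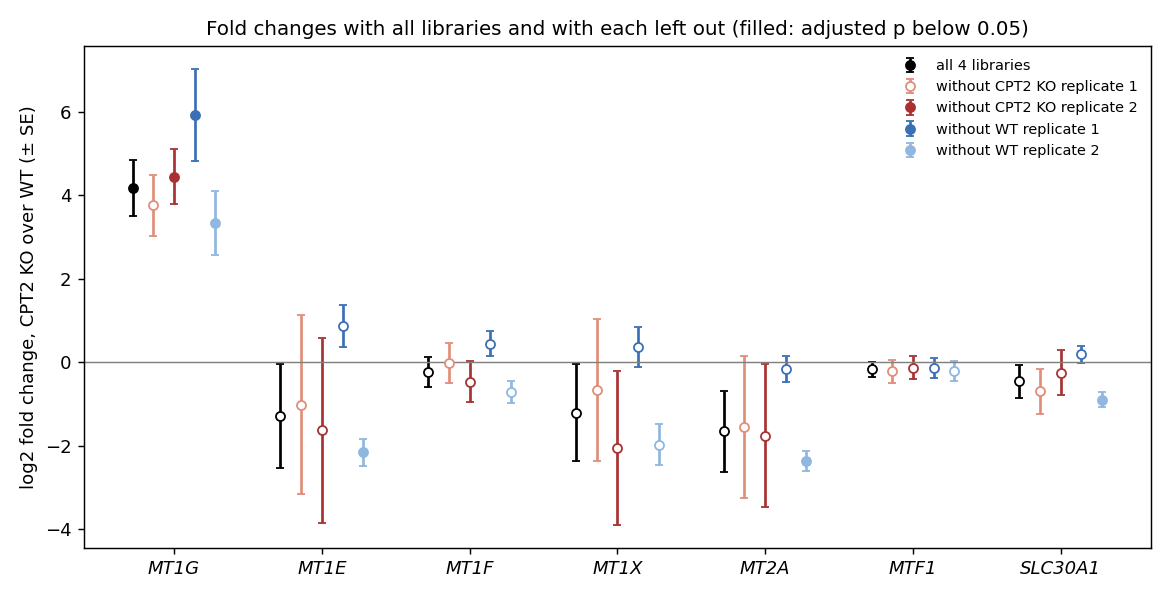
Log2 fold change, CPT2 KO over WT by label, of the 6 tested members and SLC30A1 with all 4 libraries and with each library left out; bars are 1 standard error and filled points have an adjusted p below 0.05. MT1G stays between 3.34 and 5.93, while MT1E, MT1F, MT1X and SLC30A1 change sign without replicate 1 labelled WT.

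Set per kilobase of the gene length in the table, levels could be ordered between genes. MT2A was first in every library, at 7.30 and 8.56 CPM per kb in the libraries labelled CPT2 KO and 41.0 and 8.80 CPM per kb in those labelled WT. MT1G came second in replicate 1 labelled CPT2 KO, at 5.403 CPM per kb, and in replicate 2, at 3.37 CPM per kb, it came after MT2A, MT1X (6.93), MT1F (6.43) and MT1E (4.06). In the libraries labelled WT it stood at 0.433 and 0.0646 CPM per kb, below MT1X, MT1F, MT1E and MTF1. Of these, replicate 1 also had MT1A (0.683) and MT1M (0.53), with few counts, above MT1G. In replicate 2 labelled WT, MT1F (4.06) and MT1X (3.62) were neighbours in this order, as were MT1X and MT1E (both 2.63) in replicate 1 labelled CPT2 KO. The table's length of MT1F is 1852 bases, far above its 186 coding bases, so a level per kb depends on which exons are used.

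The summed counts of the 9 metallothioneins were 554 and 663 in the libraries labelled CPT2 KO against 1891 and 490 in those labelled WT, or 27.4 and 39.9 CPM against 102.3 and 23.8 CPM. The sum was thus highest in replicate 1 labelled WT and lowest in replicate 2 of the same label. On the log2 scale the ratio of the group means was -0.91, and it was 0.50 without replicate 1 labelled WT.

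Within these sums, MT1G and MT1H together held 16.4% and 8.9% of the counts in the libraries labelled CPT2 KO (exact 95% intervals 13.4% to 19.8% and 6.84% to 11.3%). They held 0.317% and 0.204% in those labelled WT (0.117% to 0.689% and 0.00517% to 1.13%). These shares do not depend on library scaling, and both libraries labelled CPT2 KO lay above both labelled WT. The intervals cover counting error only, not the spread between libraries. MT1G and MT1H were put together because both were higher under the CPT2 KO label, so this separation is no separate support. MT2A held 24.4% and 19.6% against 36.6% and 33.9%, and MT1X 16.6% and 30% against 31% and 26.3%. MT1F held 31.9% and 29.9% against 16.4% and 31.6%. The log2 ratio of MT1G to MT2A, each as CPM + 0.5, was -0.66 and -1.46 in the libraries labelled CPT2 KO against -5.52 and -3.96 in those labelled WT. The difference of the means was 3.69. A two-sided exact permutation test gave p = 0.333, the smallest that 2 against 2 libraries allow, so it could not pass. MT1G is the called member and MT2A has the lowest log2 fold change of those tested, so this ratio is no separate support.

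**Figure D3:**
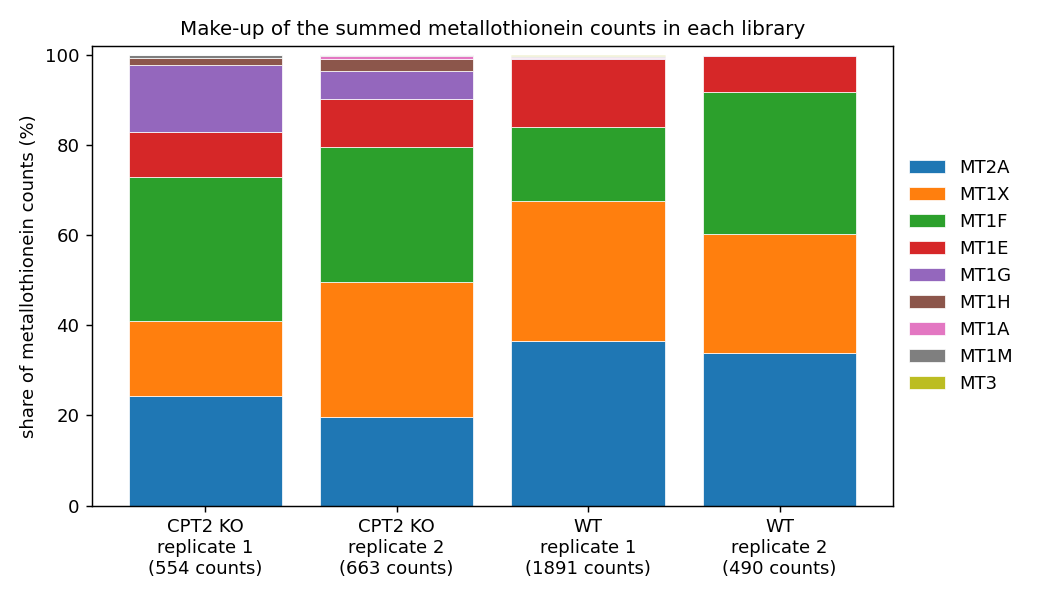
Share (%) of the summed metallothionein counts held by each gene, in the libraries labelled CPT2 KO (left pair) and WT (right pair), with the summed count under each bar. MT1G takes 14.8% and 6.33% in the libraries labelled CPT2 KO against 0.317% and 0.204% in those labelled WT.

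Promoters are shown for MT1H, MT2A and MT1X, which took different courses across the libraries. RefSeq promoters (GRCh38.p14, from 250 bases before to 50 bases after the gene's start) were matched by symbol for 4 of the 10 members, these 3 and MTF1. The core of the metal response element was searched in 2 forms, TGCACNC and TGCGCNC, on both strands, and matches are in capitals.
MT1H (chr16:56669564-56669863, plus strand): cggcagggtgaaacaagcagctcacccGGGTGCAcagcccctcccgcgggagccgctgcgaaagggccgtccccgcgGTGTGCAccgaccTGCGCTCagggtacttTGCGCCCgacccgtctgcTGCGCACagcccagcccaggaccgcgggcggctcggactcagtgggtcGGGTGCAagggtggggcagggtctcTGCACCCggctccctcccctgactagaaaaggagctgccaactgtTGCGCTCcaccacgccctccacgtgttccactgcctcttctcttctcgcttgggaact
MT2A (chr16:56608334-56608633, plus strand): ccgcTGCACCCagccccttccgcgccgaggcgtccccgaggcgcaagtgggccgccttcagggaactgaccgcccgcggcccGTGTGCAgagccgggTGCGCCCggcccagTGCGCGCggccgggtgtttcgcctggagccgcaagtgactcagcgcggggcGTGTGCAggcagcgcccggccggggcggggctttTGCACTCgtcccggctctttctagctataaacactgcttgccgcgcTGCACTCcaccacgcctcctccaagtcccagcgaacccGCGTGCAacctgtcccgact
MT1X (chr16:56682220-56682519, plus strand): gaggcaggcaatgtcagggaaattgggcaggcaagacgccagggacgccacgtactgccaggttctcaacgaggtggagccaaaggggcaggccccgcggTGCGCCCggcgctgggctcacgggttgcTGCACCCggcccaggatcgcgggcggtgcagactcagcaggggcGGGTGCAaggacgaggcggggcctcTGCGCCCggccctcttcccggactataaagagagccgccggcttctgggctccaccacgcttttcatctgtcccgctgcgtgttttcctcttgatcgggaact
MT1H and MT2A each held 8 matches and MT1X held 4, none of which overlapped, and they are placed in the map of matches along the promoters. Of 35116 promoters of this length in the table, 29.6% held at least 1 match, 0.601% at least 4 and 0.0199% at least 8. The promoter of SLC30A1 held 2 and that of MTF1 held 0. Those of MT1B and MT4, outside the members, held 3 each, though both genes had 0 counts in all 4 libraries. A match is a run of letters and no measured binding site.

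**Figure D4:**
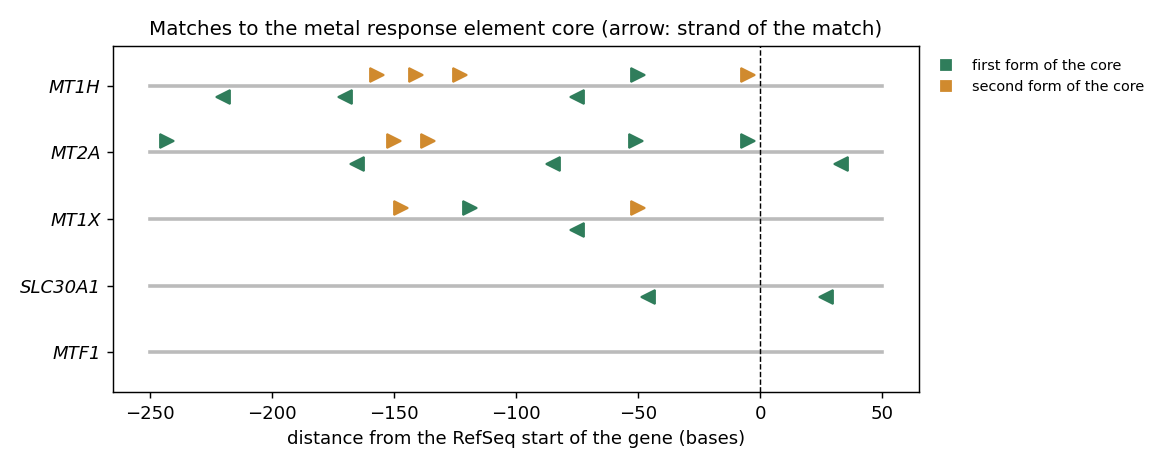
Matches to the metal response element core along 5 RefSeq promoters, by distance in bases from the start of the gene (dashed line); arrows above a line are matches on the strand of the gene, arrows below on the other strand, and the colours are the 2 forms. MT1H and MT2A carry 8 matches each, MT1X 4, SLC30A1 2 and MTF1 0.

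Other genes of metal handling had no called member in either direction, read against 0.416% called over all tested genes. Of the zinc exporters, 0 of 6 tested genes were called higher or lower (median log2 fold change 0.057, against 0.0018 over all tested genes). Of the zinc importers 0 of 11 were (median 0.068), and of the copper genes 0 of 10 (median 0.11). Genes at an unadjusted p below 0.05 numbered 0, 1 and 0, where 9.04% of all tested genes were, and DESeq2 called 0, 1 and 0, where it called 0.986% of all genes with an adjusted p. Beside this, the tested metallothioneins had a median of -1.21 with 4 negative and 1 positive value, and 0.45 without replicate 1 labelled WT. The genes with the highest mean CPM, not set per length, in these lists were SLC30A9 (log2 fold change 0.067), SLC39A10, a zinc importer of the cell surface (-0.038), and SLC31A1, the copper importer (-0.13), with edgeR adjusted p of 0.906, 0.957 and 0.81.

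SLC30A1, the zinc exporter driven by MTF1, had 910 and 550 counts in the libraries labelled CPT2 KO against 1340 and 707 counts in those labelled WT. In CPM these are 45.0 and 33.1 against 72.5 and 34.3, so replicate 1 labelled WT was again the highest library. The log2 fold change was -0.45 (SE 0.40, edgeR adjusted p = 0.768) and turned to 0.19 without that library. It was -0.89 without replicate 2 labelled WT, where the group labelled WT is replicate 1 alone.

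Genes of the metal and oxidative stress response had 0 calls among 10 tested (median log2 fold change 0.11), against 0.416% over all tested genes. DESeq2 called 0, where it called 0.986% of all genes with an adjusted p. At an unadjusted p below 0.05 there was 1 gene, where 9.04% of all tested genes were. That gene was HMOX1, heme oxygenase 1, with 280 and 318 counts in the libraries labelled CPT2 KO against 178 and 227 counts in those labelled WT, or 16.5 ± 3.74 CPM against 10.3 ± 0.968 CPM (SD, n = 2 each). Its log2 fold change was 0.67 (SE 0.23, edgeR adjusted p = 0.411), and replicate 1 labelled WT was its lowest library, not its highest. TXNRD1, thioredoxin reductase 1, had 0.11 (adjusted p = 0.836). Glucocorticoid response genes, read against the same shares, also had 0 calls among 6 tested (median -0.23). They had 0 at an unadjusted p below 0.05 and 0 with DESeq2, and FKBP5 was at 0.21 (edgeR adjusted p = 0.754).

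**Figure D5:**
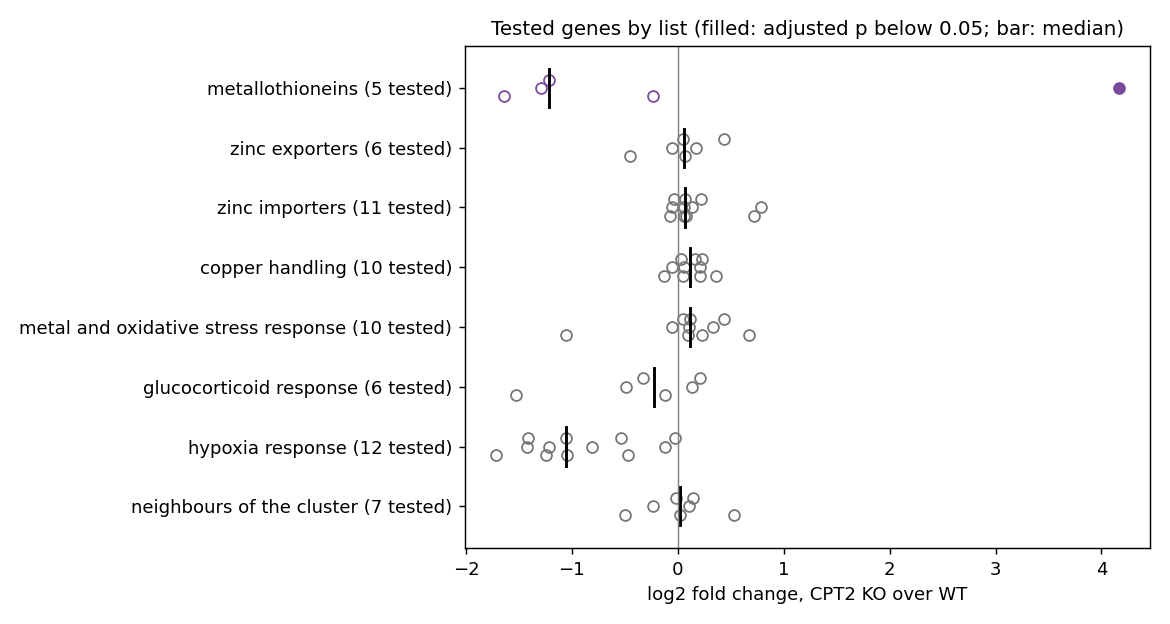
Log2 fold change, CPT2 KO over WT by label, of every tested gene in 8 lists; each circle is a gene, bars are list medians and filled circles have an adjusted p below 0.05. MT1G, at 4.17, is the filled circle, the other metallothioneins lie between -1.65 and -0.23, the hypoxia response list has a median of -1.05 and the glucocorticoid list one of -0.23.

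Replicate 1 labelled WT also stood apart outside the metallothioneins. Between replicates, the chi-square per degree of freedom over genes was 10.5 for the pair labelled CPT2 KO and 39.6 for the pair labelled WT. Summed over 12 hypoxia response genes, CPM was 1467 and 1002 in the libraries labelled CPT2 KO against 4300 and 962 in those labelled WT. Their median log2 fold change was -1.05 with 0 genes called, and 0.36 without replicate 1 labelled WT. Without replicate 2 labelled WT it was -1.76, with 7 of 12 genes called lower, where 3.84% of all tested genes were. In the fit with all 4 libraries no gene of the list had an unadjusted p below 0.05, against 9.04% of all tested genes. DESeq2 called 0, where it called 0.986% of all genes with an adjusted p. LDHA, lactate dehydrogenase A, had the highest mean CPM, at 756 and 573 CPM against 2265 and 498.5 CPM, and so weighed most in the sums. The genes of the list did not all move as far. Replicate 1 over replicate 2 labelled WT, the ratio was 4.54 for LDHA and 1.84 for VEGFA. CA9, with few counts, was the only gene of the list below a ratio of 1, at 0.931. The part of these genes in the metallothionein levels was not tested.

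Between the 2 libraries labelled WT, replicate 1 over replicate 2, the ratio was 8.13 for MT1E, 5.07 for MT1X, 4.65 for MT2A and 2.23 for MT1F. On log2(CPM + 0.5), 0.0911%, 0.216%, 0.268% and 1.64% of all tested genes differed at least as far in this direction. SLC30A1 had a ratio of 2.12 (1.88% of tested genes), and the hypoxia gene BNIP3, of mitochondrial turnover, 5.12 (0.182%). MT1G was also higher in replicate 1, with a ratio of 6.7 (8.22%), but from 6 and 1 counts. MTF1 had 1.05 (41.3%) and HMOX1 0.876 (70%).

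Markers of the labelled cell type were present, while those of hepatocytes and of endothelium and blood were near 0. The 8 pluripotency markers summed to 9200 and 10380 CPM in the libraries labelled CPT2 KO against 8468 and 9289 CPM in those labelled WT, with 0 called. For POU5F1, a core pluripotency factor, the log2 fold change was 0.18 (edgeR adjusted p = 0.71). Hepatocyte markers, from a tissue rich in metallothionein, summed to 0.0494 and 0.0602 CPM against 0.162 and 0.145 CPM, and endothelial and blood markers to 0.593 and 0.662 CPM against 0.271 and 0.485 CPM. ALB, albumin, had 0 and 0 counts against 3 and 1, and PTPRC, the CD45 antigen of blood cells, had 3 and 4 against 3 and 7. Of the 5 fibroblast markers, COL3A1, LUM and DCN had at most 7 counts in any library. COL1A2, with the highest mean CPM, was not near 0, at 187 and 161 CPM in the libraries labelled CPT2 KO against 162 and 187 CPM. Its log2 fold change was -0.0039 (adjusted p = 0.996 with edgeR). COL1A1 stood at 29.3 and 32.8 CPM against 29.1 and 32.9 CPM.

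Markers of mesendoderm and definitive endoderm had higher CPM in both libraries labelled CPT2 KO than in both labelled WT, but none passed the edgeR test. Groups that did not overlap, in either direction, were found for 40.9% of all tested genes. The 4 mesendoderm markers summed to 119 and 30.5 CPM in the libraries labelled CPT2 KO against 3.46 and 3.44 CPM in those labelled WT. The 4 definitive endoderm markers summed to 137 and 12.6 CPM against 0.217 and 0.0969 CPM, with SOX17 and GATA6 at 0 counts in both libraries labelled WT. Of these 8 genes 6 were tested with edgeR and 0 were called, and 5 had an unadjusted p below 0.05, against 9.04% of all tested genes. DESeq2 called 6 of the 8 higher, against 0.743% of all genes with an adjusted p. MIXL1 and CER1, with the highest mean CPM of each list, had edgeR adjusted p of 0.344 and 0.436. SOX1, a neuroectoderm factor, fell, with 15 and 5 counts against 82 and 130 counts (log2 fold change -3.30, adjusted p = 0.0164 with edgeR). The other 3 neuroectoderm markers did not share this: PAX6 had 40 and 12 counts against 19 and 8 (1.01, adjusted p = 0.664), and LHX2, with 3 and 4 counts against 0 and 0, and OTX1, with 1 and 0 against 1 and 0, were under the low count filter. Whether these markers bear on the MT1G difference was not tested.

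Genes around the cluster on chromosome 16 gave no call. Of 9 neighbours 7 were tested, and 0 were called in edgeR or DESeq2 (median log2 fold change 0.017), and 2 had an unadjusted p below 0.05, against 9.04% of all tested genes. These were BBS2, a gene of the cilium (log2 fold change -0.50, adjusted p = 0.496), and HERPUD1, an endoplasmic reticulum stress gene (0.53, adjusted p = 0.429). NUDT21, an mRNA 3′ end processing factor, had the highest mean CPM (0.10, adjusted p = 0.834). NUDT21 and BBS2 both overlap OGFOD1 on the other strand, and since the strand setting was not stated, reads from the overlaps are uncertain.

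The mean profile of the 5 tested metallothioneins, as log2(CPM + 0.5) centred over the 4 libraries, was -0.23 and 0.15 in the libraries labelled CPT2 KO against 0.93 and -0.84 in those labelled WT. This mean includes MT1G, which was higher under the CPT2 KO label, while MT2A, MT1X, MT1F and MT1E were highest in replicate 1 labelled WT. It is therefore a mixture that need not describe any of these genes. Among 11760 other genes with at least 5 CPM on average, ARRDC2, KCNH8, PFKP, TGFB1 and ZNF333 had the most similar profiles, at Euclidean distances of 0.324, 0.397, 0.468, 0.491 and 0.502. PFKP, a phosphofructokinase of glycolysis, had 79.8 and 77.7 CPM against 176 and 61.4 CPM. A likeness over 4 libraries is a description only.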

How the data were processed

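Per the labels, total RNA from 4 samples of HUES8 cells was made into Illumina libraries. Per the submitters' processing notes, the authors used HISAT2 2.1.0 and featureCounts 1.6.4 on hg38, that is GRCh38. The table they deposited gives, for each gene symbol, unnormalized counts of reads and a gene length. For strand setting, read length, annotation release and multiply aligned reads: not given in the sources used here. Library totals were 20219396 and 16887789 counts (CPT2 KO by label) and 18356754 and 20460031 counts (WT by label).

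From these counts, genes were filtered with filterByExpr, which left 17564, scaled by TMM and tested between groups, with no covariate, by edgeR 4.0.16 (robust quasi-likelihood; R 4.3.3). P-values were adjusted after Benjamini and Hochberg across every tested gene, with a threshold of 0.05. SE is the size of the log2 fold change divided by the square root of F. Alternatives were other scalings, filters and tools (DESeq2 1.42.0, limma-voom of limma 3.58.1), a replicate block, leaving out each library with the tested genes kept, and, chosen after seeing the data, the legacy estimate and no robust estimation. On simulated data for this comparison, 17526 genes were tested in the median run. There edgeR recovered 11.4%, 50.3% and 84.2% of genes changed 1.5-fold, 2-fold and 4-fold, and 4.52% of its calls were false. Simulated libraries of a group shared a mean and a spread set by expression level. None stood apart as replicate 1 labelled WT did, so these rates may not hold for MT2A, MT1X and MT1E.

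Members and gene lists were chosen with earlier results of these data known. Named genes are the members, CPT2, SLC30A1, HMOX1, from each list the called genes and the one with the highest mean CPM, and the 5 genes most like the tested metallothioneins. SOX17, GATA6, PAX6, LHX2, OTX1, BNIP3, BBS2, HERPUD1, COL1A1, the 3 fibroblast markers with few counts, SLC39A8 and SLC30A10 were named after their values were seen. So were VEGFA and CA9.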

Additional observations from a re-analysis of the deposited data

How the results depend on the processing

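The 73 genes called over the whole table became 124 with no low count filter and 183 with DESeq2, and leaving out 1 library at a time gave 33 to 1205. The count of called members, 1 (MT1G), was 0 with limma-voom. Leaving out 1 library leaves a group of 1 library, so effect sizes are given for the members there. Without replicate 1 labelled CPT2 KO, MT1G stood at 3.76 on the log2 scale and its call was lost. Without replicate 2 labelled WT, MT1E stood at -2.15 and MT2A at -2.37. The group labelled WT is then replicate 1 alone, the library that stood apart, and that setting gave the most calls over the whole table. MT1G was positive in all 14 alternatives and called in 12 of them (adjusted p 0.000448 to 0.0745). Leaving out libraries in turn gave log2 fold changes of -2.15 to 0.87 for MT1E, -0.71 to 0.45 for MT1F, -2.05 to 0.37 for MT1X and -0.89 to 0.19 for SLC30A1, each positive only without replicate 1 labelled WT. The cause of these changes was not tested beyond the library left out. With the replicate number as a block, 373 genes were called, MT1G the only member among them (adjusted p = 0.00223). The deviations of same-numbered libraries correlated at 0.22 over genes, but 2 pairs and the labels do not show that the numbers pair the samples. Over the single genes and the summed ratio, 119 values kept direction and side of the threshold or stayed within the replicate spread, 4 reversed, 3 gained and 4 lost a call, and 1 moved. Among scalings, the largest shift in the median of all tested genes was -0.0213 (log2), with library size only.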

Other observations

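SLC39A8, a carrier that brings zinc, manganese and cadmium into cells, was the zinc importer with an unadjusted p below 0.05. It had 1884 and 1262 counts (93.1 and 75.9 CPM) in the libraries labelled CPT2 KO against 918 and 1089 counts (49.7 and 52.8 CPM) in those labelled WT. The groups did not overlap, which 40.9% of all tested genes had. Its log2 fold change was 0.72 (SE 0.15, edgeR adjusted p = 0.107). It was called with DESeq2 (adjusted p = 0.0153) and with edgeR and the replicate block (0.0133). These settings called 183 and 373 genes over the whole table, against 73 in the main fit. With 1 library left out at a time, the log2 fold change was lowest without replicate 1 labelled CPT2 KO (0.567) and highest without replicate 2 of that label (0.865).

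SLC30A10, which exports manganese, had 4 and 0 counts in the libraries labelled CPT2 KO against 27 and 3 counts in those labelled WT, so its counts came mainly from replicate 1 labelled WT, as for MT2A, MT1E and MT1X. It was under the low count filter, and with no filter edgeR gave an adjusted p of 0.688.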
